A study of Mus musculus with 8 samples.

Results

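The genes described here act in lipid droplets and triglyceride handling, and 10 were followed across 8 mouse microarrays: Plin2, Plin4, Plin5, Dgat1, Dgat2, Lpl, Fabp4, Cd36, Pnpla2 and Lipe. They were chosen by name, with earlier results of these data known. All 10 of 10 had at least 1 probe among the 20062 genes that could be named and measured on these arrays. Lpl had 2 probes and the others 1 each. The arrays were hybridised with Cy3-labelled RNA, 1 array per group. Of these, 5 held liver cells that bear p75NTR, a neurotrophin receptor of stellate cells, and lack CD45 and Ter119, sorted from livers at 4 fetal stages (E11.5, E13.5, E14.5, then E17.5, where E is the embryonic day) and at P1, postnatal day 1. Another held adult hepatic stellate cells (HSC) sorted by their vitamin A. The remaining arrays held MEF, fibroblasts cultured from embryonic skin, and MSC, purified adult mesenchymal stem cells of bone marrow. Strain, sex, genotype and any pooling of animals are not given in the sources used here, and no treatment is named for any group. No group has a replicate, so no spread between animals can be given, and the p-values below measure only the spread between arrays of different stages or cell types.

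Hepatic stellate cells are the vitamin A stores of the liver. They esterify retinol and keep the retinyl esters in cytoplasmic droplets together with triglycerides. Droplets are coated by perilipins, filled by acyltransferases that add the last fatty acid to diglyceride, and emptied by lipases. Fatty acids reach the cell from circulating lipoproteins through lipoprotein lipase, and are taken up and carried by membrane and cytosolic proteins.

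Promoter sequence is shown for 4 of the genes, because Plin2 and Pnpla2 were highest in the adult stellate cells, Plin5 was above background in only part of the liver arrays, and Cd36 stood out in MEF. RefSeq (GRCm38.p6) promoter entries were matched for 6 of the 10 genes, with 8 promoters in all. Each line gives the 250 bases before the annotated start, 5′ to 3′ on the strand of the gene, and for Plin5 the first of its promoters. Capitals mark matches, on either strand, to motifs for which both strands were searched: AGGTCA, the hexamer bound by nuclear receptors, the GC box GGGCGG, the CCAAT box, the TATA box in the form of TATAAA, and the E box CACGTG.
Plin2 (chr4:86670060-86670309, minus strand): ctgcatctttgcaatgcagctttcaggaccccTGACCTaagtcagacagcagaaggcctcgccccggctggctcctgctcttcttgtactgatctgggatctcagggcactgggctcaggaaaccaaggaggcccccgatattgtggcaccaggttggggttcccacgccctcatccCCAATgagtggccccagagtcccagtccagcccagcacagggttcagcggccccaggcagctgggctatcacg
Pnpla2 (chr7:141454938-141455187, plus strand): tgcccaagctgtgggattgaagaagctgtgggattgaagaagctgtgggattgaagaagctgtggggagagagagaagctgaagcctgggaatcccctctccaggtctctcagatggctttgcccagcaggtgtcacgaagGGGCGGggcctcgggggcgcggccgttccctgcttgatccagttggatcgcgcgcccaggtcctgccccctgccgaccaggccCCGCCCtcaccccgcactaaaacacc
Plin5 (chr17:56117549-56117798, minus strand): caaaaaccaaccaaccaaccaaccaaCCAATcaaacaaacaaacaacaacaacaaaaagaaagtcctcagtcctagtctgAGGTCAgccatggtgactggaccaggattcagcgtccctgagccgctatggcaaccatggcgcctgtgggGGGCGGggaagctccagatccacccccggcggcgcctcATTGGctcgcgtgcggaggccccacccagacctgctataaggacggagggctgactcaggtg
Cd36 (chr5:17835897-17836146, minus strand): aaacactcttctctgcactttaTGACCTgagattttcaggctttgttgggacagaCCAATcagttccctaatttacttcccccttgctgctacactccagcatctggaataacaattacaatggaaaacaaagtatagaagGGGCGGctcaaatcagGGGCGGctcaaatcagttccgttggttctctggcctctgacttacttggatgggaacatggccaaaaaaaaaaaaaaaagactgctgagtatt
Over the 8 promoters of the 6 genes, AGGTCA was found in Plin2, Plin5 and Cd36, and in 14.02% of 32851 promoters of the same length. GGGCGG was found in Pnpla2, Plin5, Cd36 and Lipe (32.7% of all), and CCAAT in Plin2, Plin4, Plin5 and Cd36 (33.8% of all). CACGTG was found in Lipe (6.02% of all), and TATAAA in none of the 8 (12.4% of all). The direct repeat of AGGTCA with any 1 base between the copies, which overlaps the single motif and to which PPAR and RXR bind as a pair, was in none of the 8 promoters and in 0.0335% of all. These matches describe letters in a window and no binding was measured.

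Levels are given as the log2 signal of a probe minus the log2 of the 75th percentile of its array, so that 0 is the signal of that percentile. A level is called below background where the scanner software did not mark it as well above background. Each array carried 43020 non-control spots, of which 58.8% to 64.5% were well above background and 0 were saturated. Slide 1 held the fetal arrays, and slide 2 those of P1, adult HSC, MEF and MSC. Stellate markers (such as Lrat, Des, Reln and Ngfr) were all 8 above background on each liver-derived array, with a log2 summed level of 7.20 to 9.50, against 6 of 8 and 4.32 in MEF and 4 of 8 and -2.01 in MSC. Adipocyte markers were nearly silent: Adipoq, Lep, Cfd and Cidec were below background on all 8 arrays, and Retn and Plin1 were the others, with at most 1 of 6 above background on an array (log2 summed level -4.64 to -3.20). In bulk RNA, fewer cells of a type and less RNA per cell cannot be told apart.

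Among the droplet coat genes, Plin2 was highest in the adult stellate cells. Plin2 encodes the perilipin that coats droplets in most cell types. It measured 2.50 at E11.5, 2.44 at E13.5, 3.27 at E14.5, 2.65 at E17.5, 2.38 at P1, 4.64 in adult HSC, 3.43 in MEF and 1.63 in MSC. The adult HSC array lay 2.32-fold above the next array, MEF, and the liver arrays before adulthood lay between 2.38 and 3.27. Adult HSC also had the highest summed stellate (9.50) and endothelial (7.81) marker levels of the 8 arrays. The endothelial sum rested mostly on Plvap (7.72 in adult HSC). The median endothelial marker was -2.20 in adult HSC, below E11.5 (-0.94) and E17.5 (-1.59). The part of stellate and endothelial cells in the result was not tested.

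Plin4, a perilipin best known from fat and muscle, was low everywhere. Its levels were -3.97, -5.65, -5.47, -4.59 and -2.01 from E11.5 to P1, and -4.65 in adult HSC, -2.92 in MEF and -2.46 in MSC. It was above background on all 8 arrays, and P1 was highest. Plin5, a perilipin of tissues that burn fatty acids, was above background at 3 of the 5 stages, E14.5 (-4.15), E17.5 (-4.04) and P1 (-3.46). It was below background at E11.5 (-7.14), E13.5 (-5.96), in adult HSC (-7.69), MEF (-8.05) and MSC (-8.34). Summed hepatocyte markers were 9.72 at E14.5, 6.44 at E17.5 and 5.63 at P1, but also 8.23 at E13.5. The part of hepatocytes in the Plin5 levels was not tested. Plin4 and Plin5 are neighbours on chromosome 17, and they differed in where they were measured: Plin4 was above background on the 5 arrays where Plin5 was not.

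The acyltransferases DGAT1 and DGAT2 catalyse the last step of triglyceride synthesis, and DGAT1 can also esterify retinol. Dgat1 was the flattest of the 10 genes. Its levels ran from -1.20 at P1 to -0.11 in MSC (-0.54, -0.73, -0.96, -0.92 and -1.20 from E11.5 to P1, -0.74 in adult HSC, -0.99 in MEF), a 2.14-fold range, and 19.9% of all genes had a smaller range. Dgat2 measured 0.51 at E11.5, 2.02 at E13.5, 4.12 at E14.5, 1.67 at E17.5 and 0.25 at P1, and 1.37 in adult HSC, -0.02 in MEF and 1.24 in MSC. E14.5 stood 4.27-fold above the next array. The summed hepatocyte markers peaked on the same array: 2.53 at E11.5, 8.23 at E13.5, 9.72 at E14.5, 6.44 at E17.5, 5.63 at P1, 1.39 in adult HSC, -2.75 in MEF and -0.62 in MSC. Of those 8 markers, 8 were above background from E13.5 to P1, 7 at E11.5 and in adult HSC, 4 in MSC and 2 in MEF. Their part in the Dgat2 result was not tested.

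**Figure D1:**
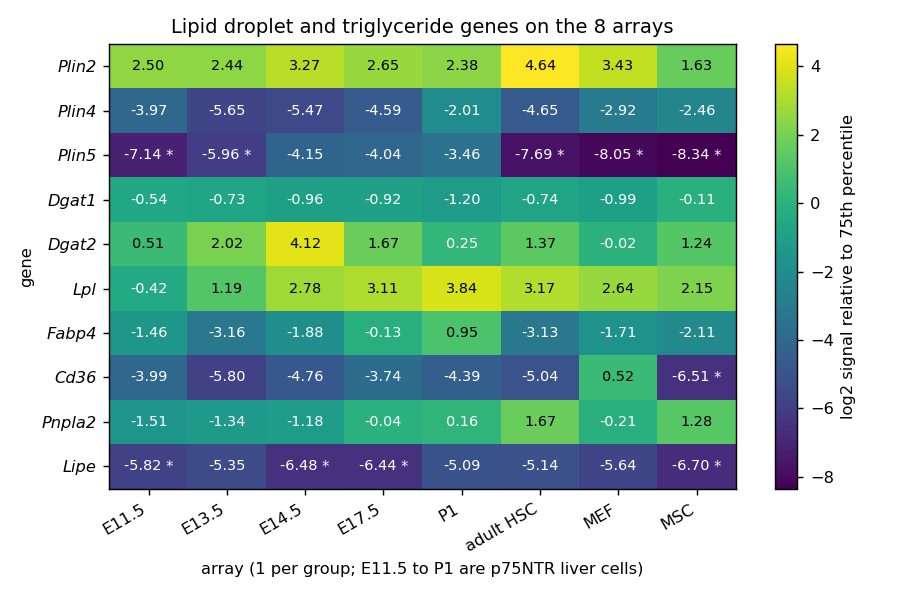
Log2 level of each of the 10 genes (rows) on each of the 8 arrays (columns), with 1 array per group; colour and printed number give the same value, and an asterisk marks a level that was not well above background. Plin2 is highest in adult HSC (4.64), Dgat2 at E14.5 (4.12), Cd36 in MEF (0.52), and Dgat1 spans 2.14-fold over all arrays.

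Fatty acid supply begins with Lpl, the enzyme that frees fatty acids from circulating triglyceride. Lpl measured -0.42 at E11.5, 1.19 at E13.5, 2.78 at E14.5, 3.11 at E17.5 and 3.84 at P1, and 3.17 in adult HSC, 2.64 in MEF and 2.15 in MSC. The second Lpl probe had the same order over the stages, with -2.17 at E11.5, -0.83 at E13.5, 0.82 at E14.5, 1.23 at E17.5 and 2.33 at P1, and 1.21 in adult HSC, 0.84 in MEF and -0.30 in MSC. P1 was highest and E11.5 lowest with both probes.

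Fabp4, a cytosolic fatty acid carrier of adipocytes, macrophages and capillary endothelium, measured -1.46, -3.16, -1.88, -0.13 and 0.95 from E11.5 to P1, and -3.13 in adult HSC, -1.71 in MEF and -2.11 in MSC. P1 was highest, 2.11-fold above E17.5, and adult HSC was among the lowest arrays, next to E13.5. Cd36, a scavenger receptor that takes up fatty acids and oxidised lipoproteins, had the widest range of the 10 genes. It measured 0.52 in MEF, against -3.99, -5.80, -4.76, -3.74 and -4.39 from E11.5 to P1, -5.04 in adult HSC and -6.51, below background, in MSC. MEF lay 19.2-fold above the next array, and 91.5% of all genes had a smaller range over the 8 arrays. The MEF array was also highest in leukocyte and Kupffer cell markers, with 6 of 7 above background and a log2 summed level of 3.89, against -1.28 to 0.52 on the other arrays. Csf1r stood at 3.16, Tyrobp at 2.18, Adgre1 at -0.53, Lyz2 at -0.64 and Ptprc at -4.40 there, and Clec4f was below background. The part of those cells in the Cd36 level was not tested, and tissue and culture cannot be told apart for MEF.

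**Figure D2:**
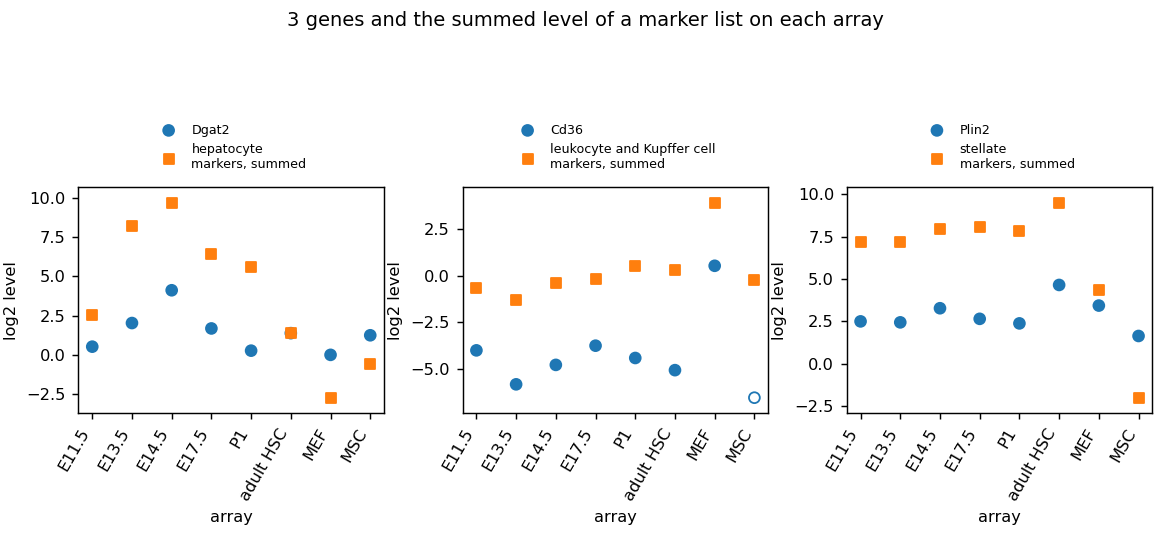
Log2 level of Dgat2, Cd36 and Plin2 (circles, open where below background) beside the log2 summed level of hepatocyte, leukocyte and Kupffer cell, and stellate markers (squares) on the 8 arrays. Dgat2 and the hepatocyte markers are both highest at E14.5 (4.12 and 9.72), Cd36 and the leukocyte markers in MEF (0.52 and 3.89), and Plin2 and the stellate markers in adult HSC (4.64 and 9.50). Below its maximum Plin2 has another order than these markers. It is second highest in MEF (3.43), where the stellate markers sum to 4.32, against 7.20 to 9.50 on the liver-derived arrays.

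Of the lipases, Pnpla2 encodes the one that takes the first fatty acid from stored triglyceride. Its level was -1.51 at E11.5, -1.34 at E13.5, -1.18 at E14.5, -0.04 at E17.5 and 0.16 at P1, and 1.67 in adult HSC, -0.21 in MEF and 1.28 in MSC. Adult HSC and MSC were the highest arrays, and every later liver stage stood above the one before it. Lipe, the hormone-sensitive lipase that acts after it and also hydrolyses retinyl esters, was near the background. It was above background on 4 arrays, E13.5 (-5.35), P1 (-5.09), adult HSC (-5.14) and MEF (-5.64), and below it at E11.5 (-5.82), E14.5 (-6.48), E17.5 (-6.44) and in MSC (-6.70). With 1 array a group, the order of neighbouring levels of any of these genes cannot be tested.

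The first comparison asked whether these genes set the 6 liver-derived arrays apart from MEF and MSC, 2 arrays of mesenchymal cells of other organs. None of the 10 did: 0 of 10 passed limma's moderated test at an adjusted p under 0.05, where 1.58% of 16442 genes passed, and 1 of 10 had an unadjusted p under 0.05, where 19.6% did (10.7% higher and 8.93% lower). That gene was Plin5. By measured values it was also the 1 of 10 genes whose groups did not overlap (23.2% of all genes), but this rests on levels below background on 5 arrays, which have no order. It averaged -5.41 in liver-derived cells and -8.20 in MEF and MSC, a log2 difference of 2.79 ± 1.18 SE (limma adjusted p = 0.248). Only 3 of the 6 liver-derived arrays were above background, and neither of the others. With MEF and MSC set to the lowest well-measured signal of their arrays, the difference was 2.07-fold. That is no lower limit, as the liver-derived mean also holds levels below background.

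None of the remaining differences passed. Plin2 averaged 2.98 in liver-derived cells and 2.53 in MEF and MSC (difference 0.45 ± 0.72 SE, limma adjusted p = 0.748). Cd36 averaged -4.62 in liver-derived cells and -2.99 in MEF and MSC (difference -1.63 ± 1.55 SE, limma adjusted p = 0.576), and here 1 array decided the value. Without MSC, which leaves MEF alone and assumes that it varies like the other arrays, the Cd36 difference was -5.15 (limma adjusted p = 0.0270), and without MEF it was 1.89 (limma adjusted p = 0.183). Plin4 differed by -1.70 ± 0.89 SE, Dgat2 by 1.05 ± 0.96 SE, Pnpla2 by -0.91 ± 0.88 SE, Fabp4 by 0.44 ± 1.1 SE, Lipe by 0.45 ± 0.51 SE, Dgat1 by -0.30 ± 0.31 SE and Lpl by -0.12 ± 1.07 SE (limma adjusted p from 0.331 to 0.964). Slide 1 held liver-derived cells only, and within slide 2 the differences were 1.11 for Lpl and 0.37 for Pnpla2, opposite in sign to those over all arrays. The median difference of the 10 genes was 0.16, beside 0.021 over all genes.

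**Figure D3:**
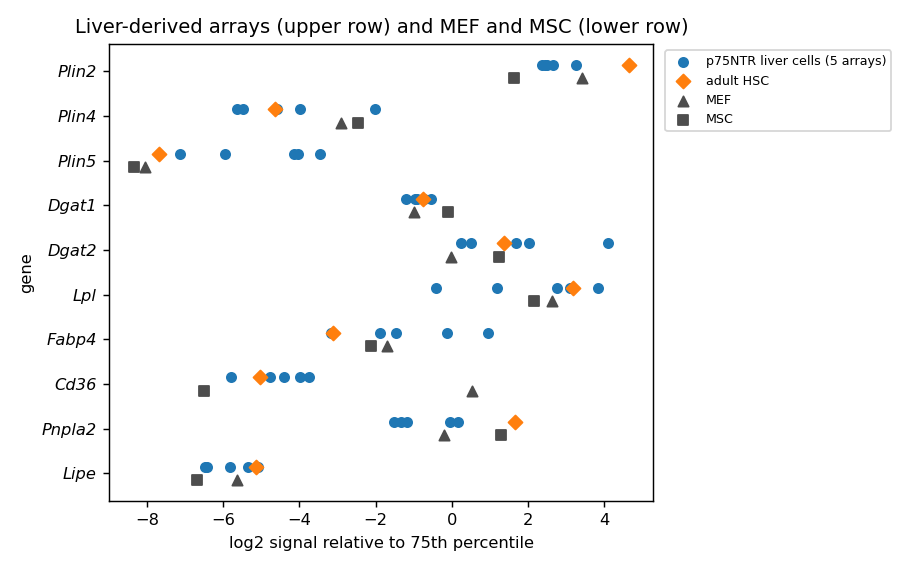
Log2 level of each gene on the liver-derived arrays (upper row of each gene: 5 p75NTR arrays and adult HSC) and on MEF and MSC (lower row), with 1 point per array. Plin5 is above background on 3 liver-derived arrays only and its other points have no order. For Cd36 the MEF point lies above the liver-derived ones, and the MSC point (-6.51), lowest by measured signal, is below background.

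Over the 5 stages of p75NTR-positive cells, Lpl, Plin5, Pnpla2 and Fabp4 had the steepest upward slopes of the 10 genes relative to their errors, and none of these passed over all genes. Per stage, in the order of the stages, the slope was 1.04 ± 0.14 SE for Lpl (limma adjusted p = 0.0643), 0.93 ± 0.15 SE for Plin5 (0.0687), 0.46 ± 0.10 SE for Pnpla2 (0.0815) and 0.78 ± 0.30 SE for Fabp4 (0.176). No gene on the arrays passed in this fit (0 of 15461, 0%, lowest limma adjusted p = 0.0579). At an unadjusted p under 0.05 there were 4 of the 10, all upward, where 12.4% of all genes were upward, 15.7% downward and 28.1% either way. Plin5 was 1 of the 4, and it was below background at E11.5 (-7.14) and E13.5 (-5.96). Its slope, its p-values and its place in this count thus rest partly on levels that have no order. Lpl and Pnpla2 were higher at each of the 4 steps, which makes 2 of the 8 members above background at all stages, beside 11.2% of 12655 such genes moving one way at every step (3.25% upward and 7.97% downward). With only genes above background on every array, the limma adjusted p of Lpl was 0.0390, and with a mean-variance trend it was 0.0285 for Lpl, 0.0479 for Plin5 and 0.0486 for Pnpla2. With normexp background correction the slope of Plin5 turned to -0.18 and that of Pnpla2 shrank to 0.26 (limma adjusted p = 0.836 and 0.798), and that of Lpl was 1.07 (0.244). Over all alternatives the limma adjusted p ran from 0.0285 to 0.244 for Lpl, 0.0479 to 0.836 for Plin5, 0.0486 to 0.798 for Pnpla2 and 0.108 to 0.798 for Fabp4.

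The other slopes were smaller relative to their errors. Plin4 had 0.50 ± 0.37 SE, Dgat1 -0.15 ± 0.059 SE, Cd36 0.12 ± 0.24 SE, Dgat2 -0.086 ± 0.45 SE and Lipe 0.038 ± 0.19 SE, and Plin2 stood at -0.0028 ± 0.12 SE (limma adjusted p from 0.181 to 0.990). Dgat2 is the case in which a straight line says least, since its level peaked at E14.5. The median slope of the 10 genes was 0.29, beside -0.026 over all genes. P1 is the only stage on slide 2, so birth and slide cannot be told apart.

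**Figure D4:**
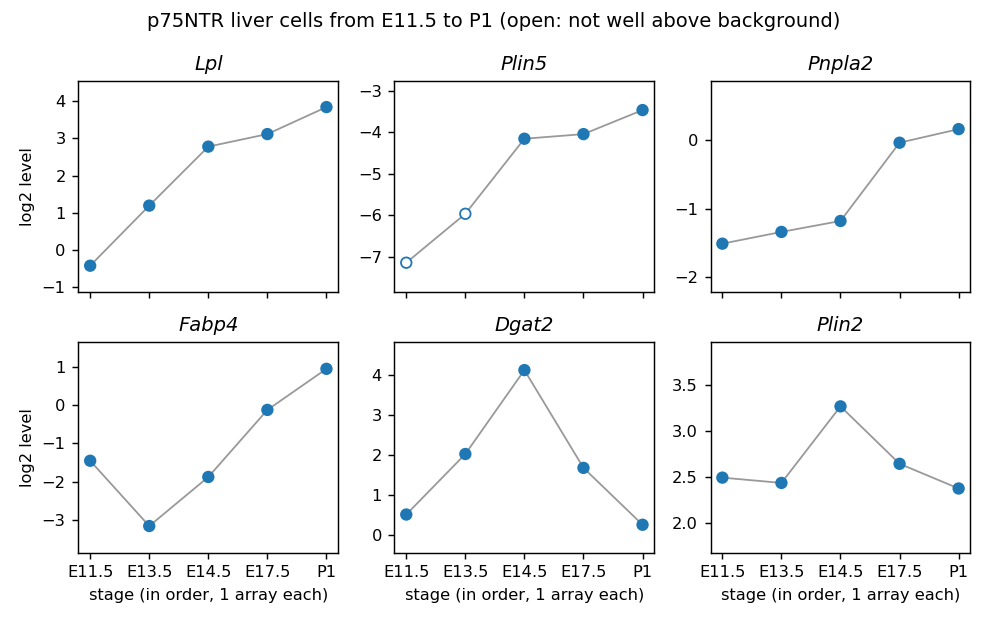
Log2 level of 6 genes on the p75NTR arrays in the order of the stages, 1 array per stage, open where the level was not well above background; each panel has its own scale. Lpl and Pnpla2 are higher at every step, Plin5 is above background from E14.5 on, Dgat2 and Plin2 are highest at E14.5, and Fabp4 is lowest at E13.5.

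The last fetal stage was set against the first, both on slide 1. At E17.5, 5 of 9 genes compared were at least 2-fold higher than at E11.5 and 0 were lower, where 28.2% of all genes were 2-fold apart (14% higher). Lpl stood at 3.11 at E17.5 and -0.42 at E11.5, or 11.6-fold higher, Pnpla2 was 2.77-fold, Fabp4 2.51-fold and Dgat2 2.24-fold higher, and Plin5 at least 2.49-fold. Plin2 (0.15), Plin4 (-0.62), Dgat1 (-0.38) and Cd36 (0.25) were within 2-fold, as log2 differences, and Lipe was below background on both. No test applies with 1 array a side. The slope of the spike-in controls was 0.849 on the E11.5 array and 0.922 to 0.933 elsewhere. With E13.5 in its place, an alternative chosen after the data were seen, Lpl, Plin5, Pnpla2 and Fabp4 remained at least 2-fold higher, Plin4 and Cd36 joined them, and Dgat2 turned to -0.35. With normexp 3 genes were at least 2-fold higher (Dgat2, Lpl and Pnpla2), and the log2 difference was 0.087 for Plin5 and 0.96 for Fabp4. Hepatocyte markers were 6.44 at E17.5 and 2.53 at E11.5 in summed level, and 7 of 8 were at least 2-fold higher. Erythroid markers summed to 6.997 at E17.5 and 2.93 at E11.5 (5 of 6 at least 2-fold higher), and endothelial markers to 5.81 at E17.5 and 4.06 at E11.5 (2 of 8 higher and 4 lower). Their part in the result was not tested.

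Adult stellate cells carried more Plin2, Pnpla2 and Dgat2 than the newborn cells and less Fabp4, Plin4 and Plin5. Plin2 stood at 4.64 in adult HSC and 2.38 at P1 (4.81-fold higher), Pnpla2 at 1.67 in adult HSC and 0.16 at P1 (2.86-fold higher), and Dgat2 at 1.37 in adult HSC and 0.25 at P1 (2.17-fold higher). Fabp4 stood at -3.13 in adult HSC and 0.95 at P1 (16.9-fold lower) and Plin4 at -4.65 in adult HSC and -2.01 at P1 (6.25-fold lower), and Plin5 was at least 5.59-fold lower. In log2 difference, Dgat1 (0.46), Lpl (-0.66), Cd36 (-0.65) and Lipe (-0.05) were within 2-fold. The 6 of 10 genes compare with 35.5% of all genes (13.7% higher and 21.8% lower), and the median difference was -0.35 for the 10 genes and -0.057 for all. With median normalization the median of all genes moved to 0.73, Dgat1 joined the higher genes and Lpl turned to 0.12. With normexp background correction Fabp4 was the only 1 of the 10 at least 2-fold lower. Both arrays lie on slide 2. The adult cells were sorted by vitamin A and the newborn cells by p75NTR, so age and sort cannot be told apart. Summed hepatocyte markers were 1.39 in adult HSC and 5.63 at P1, mesothelial markers -3.59 in adult HSC and 2.68 at P1, and endothelial markers 7.81 in adult HSC and 4.08 at P1. Of the 8 endothelial markers, 3 were at least 2-fold higher in adult HSC and 1 lower, with a median difference of -0.35. The part of any of these cell types in the result was not tested.

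Adult HSC were also set against MSC, both adult mesenchymal cells. Plin2 was 8.06-fold and Lpl 2.03-fold higher in adult HSC. Cd36 was 2.77-fold higher by its measured signals, with that in MSC below background, and Lipe at least 2.72-fold higher. Plin4 was 4.58-fold and Fabp4 2.02-fold lower. Together these are 6 of 9 genes, beside 50.2% of all genes (25.1% higher and 25.1% lower). Fabp4, and Lpl by the probe taken, lie at the edge of the 2-fold limit, and Lpl left the count with median normalization. The second Lpl probe lay further apart, at 1.21 in adult HSC and -0.30 in MSC. Pnpla2 (0.39), Dgat2 (0.14) and Dgat1 (-0.64) were within 2-fold as log2 differences, and Plin5 was below background in both.

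Against MEF, adult HSC had 3.67-fold more Pnpla2, 2.62-fold more Dgat2 and 2.32-fold more Plin2. Cd36 was 47.4-fold, Plin4 3.32-fold and Fabp4 2.67-fold lower in adult HSC. Again 6 of 9 genes were at least 2-fold apart, beside 41.9% of all genes (18.5% higher and 23.4% lower), and Dgat1 (0.24), Lpl (0.53) and Lipe (0.51) were within it as log2 differences. With normexp, the lower genes shrank to Cd36 alone here. Against MSC normexp left Plin2 and Lpl higher and none lower, with log2 differences of 0.40 for Cd36 and 0.46 for Lipe. The comparisons with P1, MSC and MEF share the adult HSC array: in all of them Plin2 was higher (log2 2.27, 3.01 and 1.22), while Plin4 (-2.64, -2.20 and -1.73) and Fabp4 (-4.08, -1.02 and -1.42) were lower.

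**Figure D5:**
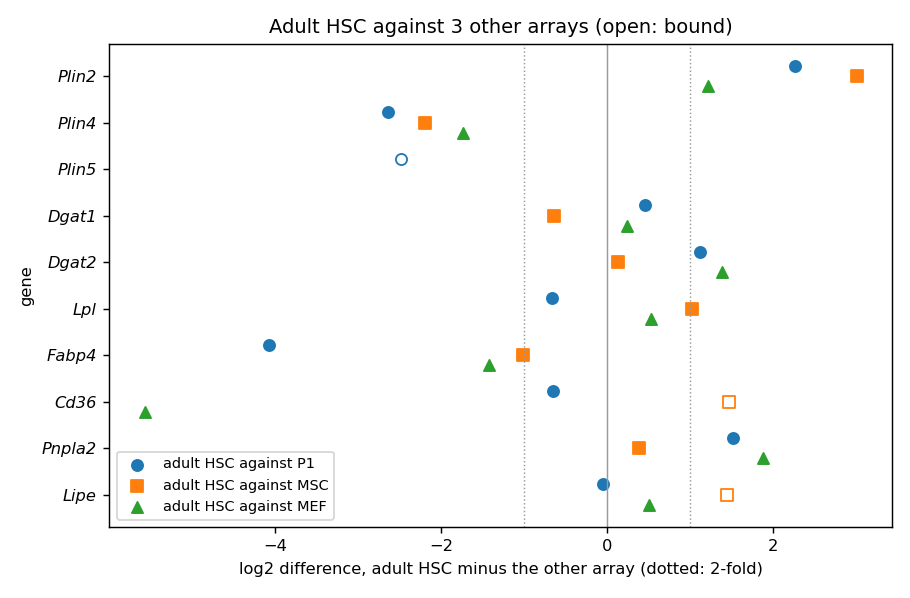
Log2 difference of adult HSC minus P1 (circles), MSC (squares) or MEF (triangles) for each gene, with dotted lines at 2-fold. Open points mark pairs with 1 side below background, where the value is a bound, or the measured difference for Cd36 against MSC. Plin2 lies to the right of 1 and Plin4 and Fabp4 to the left of -1 in all comparisons, and Cd36 lies at -5.57 against MEF.

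The wider pathways were read from 6 lists of genes. In the comparison of liver-derived cells with MEF and MSC, 1 gene of all lists passed: Pparg, the nuclear receptor of fat cell formation, at -3.53 ± 0.53 SE (limma adjusted p = 0.0240). Its levels were -3.09, -4.38, -3.82, -3.63 and -3.00 from E11.5 to P1 and -4.11 in adult HSC, against -0.92 in MEF and 0.65 in MSC, so all liver-derived arrays lay below both others. No listed gene passed over the stages (limma, lowest adjusted p of all genes 0.0579). Mgll, which cleaves the last fatty acid, had a slope of 0.91 ± 0.18 SE (limma adjusted p = 0.0792) and Hsd17b11, a droplet enzyme, 0.63 ± 0.12 SE (0.0776).

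Counts in these lists between adult HSC and P1 stand beside 13.7% higher and 21.8% lower over all genes, with a median of -0.057. Of the triglyceride synthesis genes outside the members, 4 of 13 were at least 2-fold higher and 0 lower, with a median of 0.56. Gpat2, a glycerol phosphate acyltransferase by homology, was 60.1-fold higher, Gpat3, which acts at the first step, 6.99-fold, and Lpin3, a phosphatidate phosphatase, 4.30-fold. Gpat2 measured -2.04, -1.36, 0.86, 2.30 and 0.44 from E11.5 to P1, 6.35 in adult HSC, -5.14 in MEF and -6.55, below background, in MSC. Lipolysis genes gave 3 of 6 higher and 1 lower: G0s2, an inhibitor of the Pnpla2 lipase, was 5.37-fold, Mgll 3.32-fold and Lipa, the lysosomal acid lipase, 2.51-fold higher, and Ces1d, a carboxylesterase of hepatocytes, at least 2.74-fold lower. The inhibitor and the lipase were thus both higher in adult HSC. Of 11 lipid regulators, 6 were higher and 3 lower, such as Rxra, a retinoid X receptor, 7.44-fold and Nr1h3, an oxysterol receptor, 4.11-fold higher, and Mlxipl, a sugar-responsive factor, at least 11.2-fold lower.

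Of the fatty acid uptake and binding genes, 2 of 14 were higher and 8 lower in adult HSC, with a median of -2.00. The list holds hepatocyte genes such as Fabp1 and Slc27a2, and 7 of 8 hepatocyte markers were lower on the same pair (summed level 1.39 in adult HSC and 5.63 at P1). Their part in the count was not tested. Fabp5, a fatty acid carrier of skin and other tissues, was 72.4-fold lower. It measured 5.67, 5.90, 6.85, 5.59 and 4.59 from E11.5 to P1, -1.59 in adult HSC, 5.08 in MEF and 5.55 in MSC, so adult HSC stood alone below the other 7. Fabp1, the hepatocyte carrier, was 43.0-fold and Fabp7, a carrier first known from brain, 18.3-fold lower. Of 11 droplet coat and assembly genes, 1 was higher (Hilpda, an inhibitor of lipolysis, 3.13-fold) and 4 lower (Cidea, a droplet fusion protein, at least 9.49-fold). Partners of lipoprotein lipase and lipoprotein receptors gave 4 of 9 higher and 2 lower. Vldlr, a receptor for triglyceride-rich particles, was at least 253-fold lower, with -7.78, below background, in adult HSC, against 0.03, 0.11, -0.30, 0.63 and 2.04 from E11.5 to P1, 1.71 in MEF and 2.14 in MSC. Gpihbp1, which holds Lpl on capillary endothelium, was 3.01-fold higher, on the array with the highest summed endothelial markers. That sum rested mostly on Plvap (7.72 in adult HSC).

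Between E17.5 and E11.5, the same lists gave 3 of 13 higher and 2 lower for triglyceride synthesis, 2 of 5 and 1 for lipolysis, 6 of 11 and 0 for regulators, 4 of 14 and 1 for uptake and binding, 2 of 9 and 2 for droplet coat, and 2 of 7 and 1 for lipase partners. Over all genes 14% were higher and 14.2% lower. G0s2 was 21.3-fold, Gpat2 20.3-fold and Mgll 14.8-fold higher at E17.5, and Klf15, a metabolic regulator, was higher by 3.52 on the log2 scale. Fabp1 was at least 52.9-fold higher. Retinyl ester storage was read from Lrat, which esterifies retinol. It measured -4.68, -1.89, 0.61, 2.16 and -0.13 from E11.5 to P1 and 5.12 in adult HSC, and was below background in MEF and MSC. It did not pass between liver-derived cells and MEF and MSC (limma adjusted p = 0.138).

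Among the 11305 genes above background on all 8 arrays, those most like each of the 7 members among them were ranked by Pearson's r of log2 level over the 8 arrays, a description over arrays that differ in tissue, sort and slide. The nearest were Ptgr2 (0.961) and Rnf11 (0.955) for Plin2, Sync (0.941) and Trim7 (0.934) for Plin4, Fbxo3 (0.984) and Pknox1 (0.979) for Dgat1, and Bcas1 (0.957) and Lcat (0.950) for Dgat2. They were Crtap (0.963) and Tmed3 (0.954) for Lpl, Rgs2 (0.959) and Tbc1d12 (0.935) for Fabp4, and Pitpnm1 (0.986) and Sqstm1 (0.980) for Pnpla2. None of these 7 was among the nearest genes of another, which says little, as only 2 of the 11305 genes were kept for each. Between pairs of the 7, r ran from -0.737 (Dgat2 with Plin4) to 0.575 (Lpl with Pnpla2). Plin5, Cd36 and Lipe, below background on some arrays, were not ranked.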

How the data were processed

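The intensity values in the deposited scanner files are background-subtracted, spatially detrended spot signals made with Agilent Feature Extraction 11.5.1.1, per the file headers, and arrays were not yet scaled to each other. The deposited series table holds the authors' log2 values, which track these signals over each array's 75th percentile (checked against the scanner files): values computed here minus the authors' had array medians from -0.103 to -0.150. Once that offset was removed, the share of probes matching within 0.02 was 93.2% for MSC, 96.7% for E14.5 and 100% for the other arrays. The table's column medians were -4.48 to -3.55, and it is not centred per gene. It served as an alternative.

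Outlier spots (84 to 216 per array) were dropped and spots of a probe averaged. A probe counted as well above background if at least a share of 0.5 of its spots were. The files used carry accessions rather than symbols, so 26581 of 39429 probes were named through RefSeq and unnamed probes were not tested. The array's design rests on another build than the RefSeq table, so no gene positions are given beyond the promoter entries. For a gene with several probes the one with the highest mean was taken. Tests used limma 3.58.1 (R 4.3.3) on each gene that 1 or more of the compared arrays measured above background, adjusted over all such genes by Benjamini-Hochberg. A pair of single arrays allows no test, so a 2-fold difference was counted. Where 1 side was below background, it was set to the lowest well-measured signal of its array, which gives a bound. If its own signal was higher, that was used, and the value is then the measured difference. Precision is limited by how few arrays there are. No mean brightness was used: normexp (offset 50) took median spot and background signals.

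The members and lists were chosen with earlier results of these data known. Named genes are the members, Lrat, up to 3 genes per list with the largest change in a comparison, those that passed a fit, and the nearest genes by correlation. Another gene that the rule names is not reported here. Angptl4 and Cebpb were named after their values were seen. Marker lists covered stellate, hepatocyte, endothelial, leukocyte and Kupffer, erythroid, adipocyte, mesothelial and fibroblast cells. Erythroid markers summed to -0.12 (MEF) up to 7.00 (E17.5), and fibroblast markers to 4.40 (adult HSC) up to 6.14 (MEF), in log2. Cd68 and Apoc2 are not analysed here. In simulated arrays, each size was given to 100 genes. The liver fit (16442 genes) recovered 75% at a log2 size of 4 and 97% at 8, with 11 false calls. The slope fit (15461 genes) recovered 82% at 1 and 93% at 2, with 9 false calls. The simulated noise was independent, around exact group means or straight lines, so these shares do not give the power on the real arrays.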

Additional observations from a re-analysis of the deposited data

How the results depend on the processing

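No paired analysis was possible because each group has 1 array. Of the member results in the fits under an alternative, 277 kept direction and side of the threshold, 5 became significant and 33 changed sign, and of the member differences between pairs, 265 moved little, 35 moved more and 1 changed sign. Why a value moved was not tested. In the liver comparison 259 genes passed by limma, 51 (36 higher, 15 lower) with normexp, 157 with genes above background on every array, 74 with slide as a block, 0 on slide 2 alone (1446 at an unadjusted p under 0.05), and 82 (without E17.5) to 1277 (without MEF) with 1 array left out. Those left-out counts were 187 without E11.5, 93 without E13.5, 89 without E14.5, 167 without P1, 524 without adult HSC and 240 without MSC (57 higher, 183 lower, against 139 and 120). Median normalization moved the median of all genes to -0.35 and normexp to 0.35. For the slope 0 genes passed, 103 with quantile normalization, 677 with genes above background on every array, 1141 with a mean-variance trend, and 0 with any 1 array left out. At least 2-fold apart were 5287 genes for adult HSC against P1 (2968 with normexp, 2555 at 4-fold), 7298 against MSC (3773 at 4-fold), 6304 against MEF (3908 with normexp, 3159 at 4-fold), and 4049 for E17.5 against E11.5 (1951 with normexp, 1385 at 4-fold). Higher and lower counts against P1 were 2039 and 3248, and 5587 and 2084 with median or 2686 and 2659 with quantile normalization. Against MEF they were 2780 and 3524, and 4029 and 2673 with median normalization, and for E17.5 against E11.5 2011 and 2038, and 2365 and 1594. In the liver comparison Plin4 turned to 0.094 with normexp, Lpl to 0.023 with the mean of its probes and to 1.11 with slide as a block or slide 2 alone, and Pnpla2 to 0.37 in both. With 1 array left out Plin2 ran from -0.45 to 1.34, Dgat1 from -0.74 to 0.14, Lpl from -0.43 to 0.42, Fabp4 from -0.040 to 0.78, Cd36 from -5.15 to 1.89 and Lipe from -0.074 to 0.98. Slopes turned with normexp for Plin2 (0.18), Plin4 (-0.082), Plin5 (-0.18), Dgat2 (0.048), Cd36 (-0.27) and Lipe (-0.29), with median normalization for Lipe (-0.00070), with quantile normalization for Plin2 (0.026) and Lipe (-0.0035), and with the authors' table for Plin2 (0.0021). On slide 1 alone they were 0.13 for Plin2, -0.17 for Plin4, 0.56 for Dgat2 and -0.30 for Lipe. With 1 array left out they ran from -0.081 to 0.13 for Plin2, -0.17 to 1.18 for Plin4, -0.77 to 0.56 for Dgat2, -0.038 to 0.52 for Cd36 and -0.30 to 0.13 for Lipe. Dgat2 at E17.5 turned to -0.35 with E13.5 in place of E11.5. Plin5 and Lipe lie near background, so their levels below it have no order.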

Other observations

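Among the listed lipid genes and the members, the order of the 6 liver-derived arrays was set beside that of Lrat, a choice made after the values were seen. Gpat2, Hilpda, Klf15 and Rxra had the same order of the 6 arrays as Lrat, with E11.5 lowest and adult HSC highest. Over these arrays Pearson's r with Lrat was 0.963 for Hilpda and Gpat2, 0.961 for Klf15 and 0.934 for Rxra. It is a description over arrays that share tissue and differ in stage, sort and slide. As these genes were picked by that order, a high r follows from the choice. Cebpb (0.979), G0s2 (0.977) and Mgll (0.973) had a higher r without the same order. The share of all genes with that order was not counted. Of the members, Pnpla2 had 0.866, Lpl 0.792 and Plin2 0.768, and the other members lay lower, at 0.213 for Dgat2, 0.061 for Lipe, 0.032 for Plin5, -0.087 for Cd36, -0.104 for Plin4, -0.109 for Fabp4 and -0.340 for Dgat1. Hilpda measured 0.61, 0.78, 1.55, 1.76 and 1.16 from E11.5 to P1, 2.80 in adult HSC, 0.67 in MEF and 2.35 in MSC, so it was also high in MSC, where Lrat was below background. Rxra measured -1.72, -1.55, -0.54, -0.13 and -1.24 from E11.5 to P1, 1.66 in adult HSC, -3.73 in MEF and -3.40 in MSC.

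Apoe, the apolipoprotein that binds lipoprotein receptors, measured 3.79, 5.03, 6.77, 6.34 and 6.47 from E11.5 to P1, 7.82 in adult HSC, 3.43 in MEF and -2.21 in MSC. Angptl4, a secreted inhibitor of lipoprotein lipase, measured 2.64, 2.90, 2.99, 1.88 and 5.14 from E11.5 to P1, 4.73 in adult HSC, 2.86 in MEF and 5.47 in MSC. P1, where Lpl was highest, was among its highest arrays. It was lowest at E17.5, where Lpl stood at 3.11, and highest in MSC, where Lpl stood at 2.15.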
